A study of Drosophila melanogaster with 10 samples.

Results

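The 8 insulin-like peptide genes of Drosophila melanogaster, Ilp1 to Ilp8, and ImpL2, which encodes a secreted protein that binds insulin-like peptides, were followed in bulk RNA-seq of larval brains. The 9 genes were taken by symbol from the deposited gene count table, where they are 9 of 17895 gene rows. Of these 9 genes, 7 passed the filter on low counts and were among the 10749 genes tested, while Ilp4 and Ilp8 did not pass it.

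Insulin-like peptides are secreted hormones, most of which act through a receptor tyrosine kinase, InR. Its signal runs through PI3-kinase, Akt and the TOR kinase and keeps the transcription factor FOXO out of the nucleus. The relaxin-like peptide Ilp8 has another receptor, Lgr3. In the larval brain a small set of neurosecretory neurons, the insulin-producing cells, makes Ilp2, Ilp3 and Ilp5, and their release couples growth to feeding. Other members are known for other sources: Ilp6 for fat body and glia, Ilp7 for neurons of the ventral nerve cord, Ilp8 for imaginal discs and Ilp4 for embryonic tissue.

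The samples were whole brains dissected from larvae in the third instar, with 4 control and 4 vostok libraries of total RNA made with a directional kit. Vostok is the name the submitters give to CG11504, and the series asks how its mutation affects chromatin organization and transcription. The vostok samples carry the genotype label vostok without a description of the allele, and the control samples carry the label control with library names that begin with yw. The sources used here give neither the sex of the larvae, nor how many brains made a library, nor whether libraries came from separate pools, so the p-values below reflect variation among the deposited libraries only, and part of it may be technical.

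CG11504 RNA was present in both groups, at 60.1 ± 4.99 CPM (counts per 1000000 counts, scaled between libraries; SD, n = 4) in control and 73.6 ± 1.93 CPM in vostok. It was called higher by edgeR (adjusted p = 0.0143, and 0.0531 without vostok library 3), and with the lesion not described its level does not by itself check the labels. The pigment gene y, on the X chromosome, stood at 0.663 to 0.968 CPM in the control libraries and 104 to 144 CPM in the vostok libraries. The groups thus differed in the RNA of a gene other than CG11504, while the genotype at y itself is not described. Strain and vostok mutation cannot be told apart in this design. Ilp6 and Ilp7 lie on the same chromosome as y.

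The libraries held 57613848 to 81796126 estimated counts. Neuron markers were abundant throughout, with elav, a neuronal RNA-binding protein, at 384 to 787 CPM and brp, a protein of the presynaptic active zone, at 188 to 599 CPM, and all 8 neuron markers listed were tested. The most abundant fat body markers were FASN1, a fatty acid synthase, at 401 ± 87.2 CPM in control and 553 ± 74.9 in vostok, and apolpp, a lipoprotein, at 309 ± 77.8 and 283 ± 25.8 CPM. The 16 blood cell (hemocyte) markers listed were not even between libraries: their summed level was 4068, 548, 10876 and 3656 CPM in control libraries 1 to 4 and 1279, 591, 629 and 317 CPM in vostok libraries 1 to 4. Control library 2 therefore lay within the vostok range for blood cell markers, and its summed neuron markers, at 2918 CPM, lay above the 1400 to 2428 CPM of the other control libraries and within the 2573 to 2991 CPM of the vostok libraries. Of the 8 neuron and 9 tested fat body markers edgeR called 0 and 0, with 1 and 3 at an unadjusted p under 0.05, and DESeq2 called 1 and 3; their median log2 fold changes, vostok over control, were 0.42 and 0.50. Without control library 2, edgeR called 6 of the 8 neuron markers and 2 of the 9 fat body markers as higher in vostok, with medians of 0.63 and 0.56. Over the whole table it then called 5333 of 10987 tested genes, 2523 higher and 2810 lower, beside 3040 of 10749 with all libraries. Counts of list genes called without control library 2 are read against those numbers. Results below are given with and without this library where it alters them. In bulk RNA, fewer cells of a type and less RNA per cell cannot be told apart.

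Vostok and control were compared by edgeR's quasi-likelihood test over all 10749 genes, and a gene was called at a Benjamini-Hochberg adjusted p below 0.05. Of the 7 tested members, 3 were called: Ilp7 was higher in vostok, and Ilp5 and ImpL2 were lower. Over all tested genes, 28.3% were called in either direction, 12.1% as higher and 16.2% as lower, so the members' counts of 3, 1 and 2 of 7 are read against those shares. The groups did not overlap for 1 of the 7 tested members, Ilp7, whereas they did not overlap for 33.2% of all tested genes. A share of called genes near or under that of the whole table is not a result about the members. The counts of the gene lists below are read against the same shares.

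**Figure D1:**
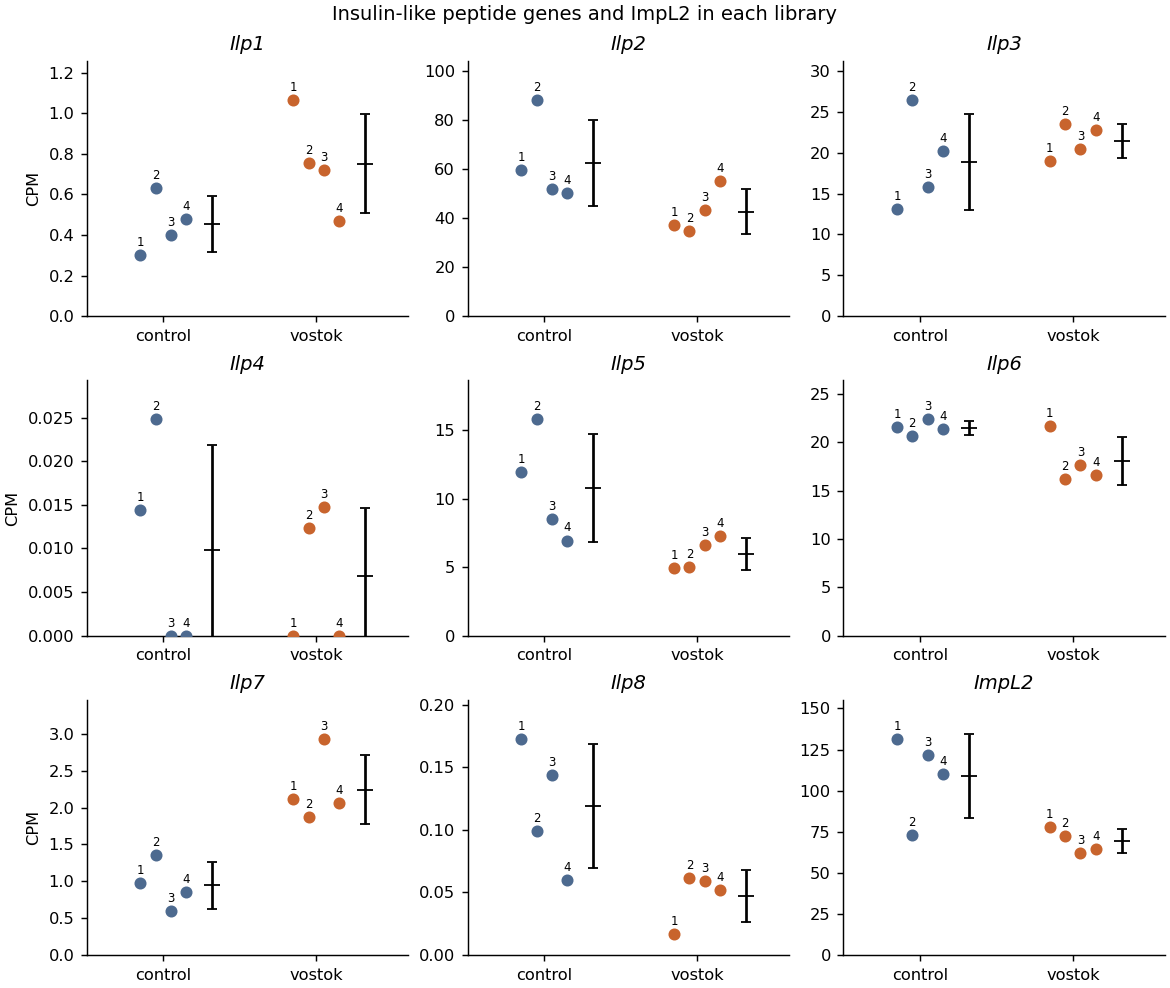
CPM of the 9 genes in each library (points, numbered by replicate; n = 4 per group), with the group mean and SD beside them; every axis starts at 0 and has its own scale. Ilp7 is the only tested member whose groups separate, control library 2 is high for Ilp2, Ilp3 and Ilp5 and low for ImpL2, and Ilp4 and Ilp8 stay below 0.2 CPM.

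The peptides of the insulin-producing cells come first. Ilp1, Ilp2, Ilp3 and Ilp4 lie in a row on chromosome arm 3L, at 9798420 to 9799050, 9799698 to 9800440, 9801298 to 9802120 and 9803399 to 9804263 of RefSeq's Release 6 annotation, and Ilp5 lies further along, at 9823349 to 9823897. The first 4 sit inside the annotated span of CG32052 and Ilp5 inside that of CG43897, and since the strand setting of the counting is not given, reads of genes that overlap may not have been separated. CG32052 stood at 4.56 ± 2.18 CPM in control and 6.78 ± 1.06 in vostok, and CG43897 at 5.81 ± 2.97 and 4.61 ± 1.78, and neither was called by edgeR (adjusted p = 0.186 and 0.521). The log2 difference in CG32052 was 0.93 without control library 2 and was then called (adjusted p = 0.0124).

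Ilp2, the most abundant of the peptides, measured 59.6, 88.1, 51.8 and 50.4 CPM in control libraries 1 to 4. It measured 37.0, 34.6, 43.3 and 55.2 CPM in vostok libraries 1 to 4. Vostok library 4 lay above 2 of the control libraries, so the groups overlapped, and control library 2 was the highest of all. The log2 fold change, vostok over control, was -0.55 ± 0.22 (SE), and the edgeR test did not call it (adjusted p = 0.0853). DESeq2 gave a like difference of -0.54 and called it (adjusted p = 0.0474). Without control library 2 the difference was -0.35 (adjusted p = 0.109).

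Ilp3 measured 13.1, 26.4, 15.8 and 20.2 CPM in control libraries 1 to 4 and 19.0, 23.4, 20.5 and 22.8 CPM in vostok libraries 1 to 4. All vostok libraries fell within the control range, which control library 2 again set at the top. The difference of 0.18 ± 0.21 on the log2 scale was smaller than its error (edgeR adjusted p = 0.497), and its sign was not stable. It was 0.39 without control library 2 (adjusted p = 0.0652) and 0.04 without control library 1 (adjusted p = 0.881), and it was -0.15 with the mean level of blood cell markers as a covariate and -0.16 with that of neuron markers.

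Ilp5 measured 11.9, 15.8, 8.50 and 6.94 CPM in control libraries 1 to 4. It measured 4.96, 4.99, 6.59 and 7.28 CPM in vostok libraries 1 to 4. Vostok library 4 lay above control library 4, the only such crossing, so the groups overlapped at that edge. Ilp5 was called lower in vostok by edgeR, with a log2 fold change of -0.86 ± 0.27 (adjusted p = 0.0475), or 10.8 ± 3.93 CPM in control against 5.96 ± 1.17 in vostok. The call ended when any 1 of 7 libraries was left out, all but control library 4, with the highest adjusted p of 0.124 without vostok library 2. Without control library 2 the difference was -0.62 (edgeR adjusted p = 0.0511). The call also ended with RLE scaling (0.0523), upper quartile scaling (0.0534), a stricter filter (0.0563) and limma voom (0.0653), while DESeq2 kept it (0.0111).

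Ilp1, which the insulin-producing cells also make at later stages, was scarce. It measured 0.303, 0.633, 0.400 and 0.479 CPM in control libraries 1 to 4 and 1.07, 0.755, 0.723 and 0.467 CPM in vostok libraries 1 to 4. The groups overlapped through vostok library 4, and the log2 difference of 0.73 ± 0.32 was not called by edgeR (adjusted p = 0.117). Its estimated counts were fractional in all 8 libraries, at a tolerance of 0.01 from a whole number, against 1 of 8 libraries for Ilp5 and none for the other members. A quantifier gives fractions where it divides reads between similar sequences, so the level of Ilp1 is uncertain.

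Since Ilp2, Ilp3 and Ilp5 are known as products of the same brain neurons, their ratios within a library set these RNAs against each other rather than against all RNA of the sample. The count ratio of Ilp3 to Ilp2 was 0.219, 0.300, 0.305 and 0.400 in control libraries 1 to 4 and 0.514, 0.678, 0.473 and 0.413 in vostok libraries 1 to 4. The ratio was higher in every vostok library than in any control library, although the gap between vostok library 4 and control library 4 was small. The mean log2 ratio differed by 0.77, or 1.71-fold, with p = 0.0286 in an exact two-sided permutation test, the smallest p that 4 against 4 libraries allow, and 0.0429 after adjustment over the 3 pairs.

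The count ratio of Ilp5 to Ilp3 was 0.914, 0.597, 0.538 and 0.344 in control libraries 1 to 4 and 0.261, 0.213, 0.322 and 0.320 in vostok libraries 1 to 4. Every vostok library lay below every control library, again with control library 4 next to the vostok range. The log2 difference was -1.04, with the same exact permutation p of 0.0286, adjusted to 0.0429. Ilp5 relative to Ilp2 ran from 0.138 to 0.201 in control and from 0.132 to 0.152 in vostok, so the groups overlapped. Its log2 difference of -0.27 did not pass (exact permutation p = 0.0857, adjusted 0.0857). The ratios are not independent, since those of Ilp3 to Ilp2 and of Ilp5 to Ilp2 determine that of Ilp5 to Ilp3. The difference in Ilp5 to Ilp3 is therefore not a separate result.

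As shares of the summed CPM of these peptides, Ilp2 made up 67.8% ± 2.22 in control and 60.5% ± 4.11 in vostok (SD, n = 4). Ilp3 made up 20.6% ± 4.33 and 31.1% ± 4.49, and Ilp5 made up 11.6% ± 2.14 and 8.49% ± 0.640. The 3 RNAs together came to 84.6, 130, 76.1 and 77.5 CPM in control libraries 1 to 4 and 61.0, 63.0, 70.4 and 85.3 CPM in vostok libraries 1 to 4. The sums overlapped between the groups, while the share of Ilp3 was 15.4% to 26.0% in control libraries and 26.7% to 37.2% in vostok libraries, without overlap. These are shares of CPM, not per length.

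**Figure D2:**
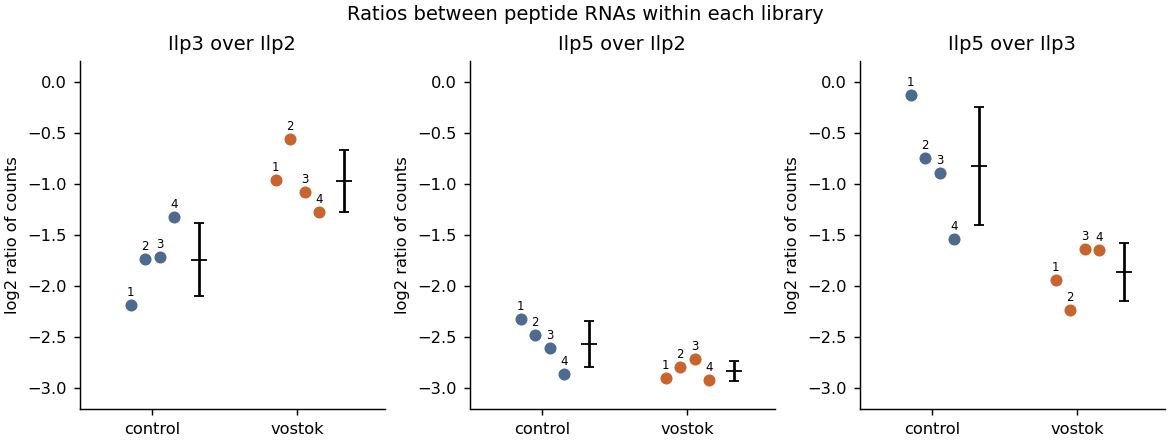
Log2 ratio of estimated counts between pairs of Ilp2, Ilp3 and Ilp5 within each library (points, numbered by replicate), with the mean and SD of 4 libraries per group. Ilp3 over Ilp2 lies higher and Ilp5 over Ilp3 lower in all 4 vostok libraries than in any control library, while Ilp5 over Ilp2 overlaps.

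Drosulfakinin (Dsk), a satiety peptide that insulin-producing cells also make, went the other way from Ilp5. It measured 6.67, 10.5, 5.68 and 7.75 CPM in control libraries 1 to 4 and 11.0, 13.1, 14.6 and 14.9 CPM in vostok libraries 1 to 4, without overlap. Dsk was called higher by edgeR with a log2 fold change of 0.81 ± 0.20 (adjusted p = 0.0214). The call ended without control library 1 or without vostok library 2, 3 or 4, with the highest adjusted p of 0.0659 without vostok library 3. With the blood cell list mean as a covariate the difference was 0.41 and not called (adjusted p = 0.100), and with the neuron list mean it was 0.49 and called (adjusted p = 0.0362). Of 14 tested genes for peptide processing and dense-core vesicles, 1 was called higher and 1 lower, with a median log2 fold change of 0.38 beside -0.01 over all genes. These were Rph, a Rab-binding vesicle protein, at 46.0 ± 14.7 CPM in control and 78.7 ± 4.62 in vostok (adjusted p = 0.0283), and Pal1, a peptide-amidating enzyme, at 81.5 ± 2.30 and 70.8 ± 3.94 (adjusted p = 0.0252). The call ended without any 1 of 7 libraries for Rph and any 1 of 3 for Pal1. With control library 2 left out, 11 of the 14 were called higher, beside 2523 of 10987 genes over the whole table. The list median of 0.38 stood beside 0.42 for the neuron markers, and it was 0.05 with the neuron list mean as a covariate and 0.12 with the blood cell list mean.

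Ilp7, a peptide of nerve cord neurons that innervate the gut and the reproductive tract, lies on the X chromosome at 3667621 to 3668845. It measured 0.980, 1.35, 0.592 and 0.854 CPM in control libraries 1 to 4, from 68, 109, 37 and 57 estimated counts. It measured 2.12, 1.87, 2.93 and 2.06 CPM in vostok libraries 1 to 4, from 127, 151, 199 and 119 counts. The lowest vostok library lay above the highest control library, so the groups did not overlap.

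Ilp7 was called higher in vostok with a log2 fold change of 1.24 ± 0.28, or 2.37-fold (edgeR adjusted p = 0.0167). Leaving out vostok library 3 ended the call (adjusted p = 0.0517), and leaving out any other library did not. RLE, upper quartile or no scaling, a stricter filter, DESeq2 and limma voom kept it. With the mean level of blood cell markers as a covariate the log2 difference was 0.93 (adjusted p = 0.135), and with that of neuron markers it was 0.96 (adjusted p = 0.0714). None of the neighbouring genes was called in the fit of all libraries. Parg, which overlaps Ilp7 by 9 bp, was at 25.7 ± 0.789 and 27.0 ± 0.941 CPM (adjusted p = 0.271), and AstA-R1, 896 bp away on the other side, at 6.33 ± 1.93 and 8.54 ± 0.230 CPM (adjusted p = 0.136). The log2 difference in AstA-R1 was 0.60 without control library 2 and was then called (adjusted p = 0.0282). Mnt, 2955 bp after Ilp7, ran from 108 to 180 CPM in control and from 182 to 197 CPM in vostok without overlap, a log2 difference of 0.34 ± 0.14 that was not called (adjusted p = 0.102).

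Hox genes that mark segments of the ventral nerve cord, a list added after the members' values were seen, were set beside Ilp7. Of 4 such genes 1 was called: abd-A stood at 46.3 ± 6.44 CPM in control and 92.3 ± 9.38 in vostok, a log2 fold change of 1.00 (edgeR adjusted p = 8.71e-04) that held without each library. Abd-B, which marks the posterior segments where Ilp7 neurons lie, stood at 11.7 ± 1.53 and 13.5 ± 2.15 CPM (adjusted p = 0.283). The summed level of the 4 genes, of which abd-A was a large part, was 131 to 153 CPM in control and 180 to 219 CPM in vostok. Their median log2 fold change was 0.16, beside -0.01 over all genes. How much nerve cord each library held, and its part in the Ilp7 difference, was not tested.

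Among 9095 tested genes of at least 1 CPM, the profile over 8 libraries closest to that of Ilp7 was AstC, the neuropeptide allatostatin C, with a root mean square distance of 0.186 between centred log2 CPM values, where the median gene lay at 0.758. AstC stood at 7.08 ± 2.33 CPM in control and 14.3 ± 2.12 in vostok (edgeR adjusted p = 0.0168, and 0.0533 without vostok library 3, as for Ilp7). The next were pre-mod(mdg4)-AA at 0.239 and CG33958 at 0.245. Genes called with a like difference between the groups are close by construction of this measure.

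Ilp6, known in Drosophila as a FOXO target that is made by fat body and by glia of the brain surface, lies on the X chromosome at 2331493 to 2334658, within the span of the kinase gene Raf. It measured 21.6, 20.6, 22.4 and 21.3 CPM in control libraries 1 to 4 and 21.7, 16.2, 17.7 and 16.6 CPM in vostok libraries 1 to 4. Vostok library 1 lay within the control range and the other 3 lay below it. The log2 difference of -0.25 ± 0.10 was not called (edgeR adjusted p = 0.0781), but without vostok library 1 it was -0.34 and called (adjusted p = 0.0125).

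Raf was called in the other direction, at 56.3 ± 1.20 CPM in control and 62.3 ± 1.36 in vostok without overlap, a log2 difference of 0.14 ± 0.04 (edgeR adjusted p = 0.0327) that lost its call without any 1 of 7 libraries, all but control library 2 (highest adjusted p 0.0807, without vostok library 3). Ilp6 varied least of the members among control libraries, with a coefficient of variation of 3.32%. Summed fat body markers ran from 575 to 1021 CPM in control and from 822 to 1216 CPM in vostok, and summed markers of surface and cortex glia from 1443 to 1896 and from 1801 to 1870 CPM. Their part in the level of Ilp6 was not tested.

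Ilp8, the relaxin-like peptide that damaged or slow-growing imaginal discs release to delay metamorphosis, was near the limit of detection. It had 12, 8, 9 and 4 estimated counts in control libraries 1 to 4 and 1, 5, 4 and 3 in vostok libraries 1 to 4, or 33 and 13 in all. These correspond to 0.119 ± 0.0497 and 0.0474 ± 0.0209 CPM, beside 0.0371 to 0.0519 CPM for 3 counts in a library. A fit without the low-count filter gave a log2 difference of -1.30 ± 0.54 that was not called (edgeR adjusted p = 0.118). Ilp4 had 3 counts in all control and 2 in all vostok libraries, so no difference was detectable at this depth.

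ImpL2, the binder of the group and a gene known in Drosophila to restrain insulin signalling, lies on 3L at 4224006 to 4236147. It measured 132, 73.2, 122 and 110 CPM in control libraries 1 to 4 and 77.6, 72.6, 62.0 and 64.5 CPM in vostok libraries 1 to 4. Control libraries 1, 3 and 4 lay above all others, and control library 2 lay within the vostok range, so the groups overlapped through that library alone. ImpL2 was called lower with a log2 fold change of -0.66 ± 0.18 (edgeR adjusted p = 0.0297). Without control library 2 the difference was -0.81 (adjusted p = 0.00123). The call ended without control library 1, 3 or 4 or vostok library 2, 3 or 4, with the highest adjusted p of 0.0797 without vostok library 3.

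The order of libraries by ImpL2 was close to their order by blood cell markers. Control libraries 1, 3 and 4, the highest for ImpL2, had mean log2 CPM of the blood cell list of 7.15, 8.38 and 6.97. Control library 2, at 4.30, and the vostok libraries, at 5.75, 4.52, 4.53 and 2.56, were lower in both. With the list mean as a covariate, which overlaps with genotype, the difference in ImpL2 was -0.27 (edgeR adjusted p = 0.350), and with the neuron list mean it was -0.29 (adjusted p = 0.0724).

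Of the 16 blood cell markers edgeR called 4 lower, namely PPO2, PPO1, Glt and vkg, with a list median of -2.49 on the log2 scale, while 12 were lower at an unadjusted p under 0.05 and by DESeq2. Without control library 2, 14 of the 16 were called lower, with a median of -2.87, beside 2810 of 10987 genes called lower over the whole table. Without control library 3, which had the most blood cell RNA, 0 were called lower and 1 higher (7 lower at an unadjusted p under 0.05). The calls of PPO2, PPO1, Glt and vkg ended without any 1 of 6, 4, 7 and 7 libraries. Hml, a marker of plasmatocytes chosen after its values were seen, stood at 403, 28.0, 1462 and 362 CPM in control libraries 1 to 4 and 153, 55.0, 84.6 and 7.52 CPM in vostok libraries 1 to 4 (adjusted p = 0.0946, and 0.0252 without control library 2).

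Of 12 imaginal disc markers 3 were lower in vostok, wg, hh and eyg, and these too were lowest among control libraries in library 2, with wg at 22.8, 8.48, 20.2 and 15.6 CPM there and 7.43 to 8.42 CPM in vostok. The call ended without any 1 of 6 libraries for wg and any 1 of 2 for hh, and held without each library for eyg. The 2 most abundant disc markers lay the other way: ap stood at 102 ± 32.5 CPM in control and 152 ± 5.76 in vostok without overlap (log2 0.57, adjusted p = 0.0700, and 0.00811 without control library 2), and sd at 243 ± 10.7 and 268 ± 16.8 CPM (log2 0.14, adjusted p = 0.119). EdgeR called 2 disc markers higher and 6 lower without control library 2, and DESeq2 on all libraries called 2 higher and 4 lower. With the neuron list mean as a covariate the log2 difference in ap was 0.20 (edgeR adjusted p = 0.0331). Summed disc markers, of which ap and sd were a large part, ran from 652 to 676 CPM in control and from 639 to 728 CPM in vostok, and overlapped. Whether the RNA of ap and sd came from discs or from brain was not tested. No blood cell or disc marker was at 0 in all libraries, and their part in the ImpL2 difference was not tested.

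The profiles closest to ImpL2 over the 8 libraries were IKKbeta, a kinase of the Imd immune pathway, gbb, a BMP ligand, and Fas3, an adhesion protein, at distances of 0.0476, 0.0719 and 0.0753, where the median gene lay at 0.420. All 3 were called lower in vostok by edgeR and shared with ImpL2 a control library 2 near the vostok range, and their calls ended without any 1 of 7, 5 and 4 libraries. IKKbeta, for one, measured 20.6, 11.9, 20.9 and 17.7 CPM in control and 13.1, 11.8, 10.2 and 11.2 CPM in vostok. For Ilp5 the closest were CG5955, MFS9 and CG1213, at 0.153, 0.184 and 0.190 beside a median of 0.570, and none of these was called.

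**Figure D3:**
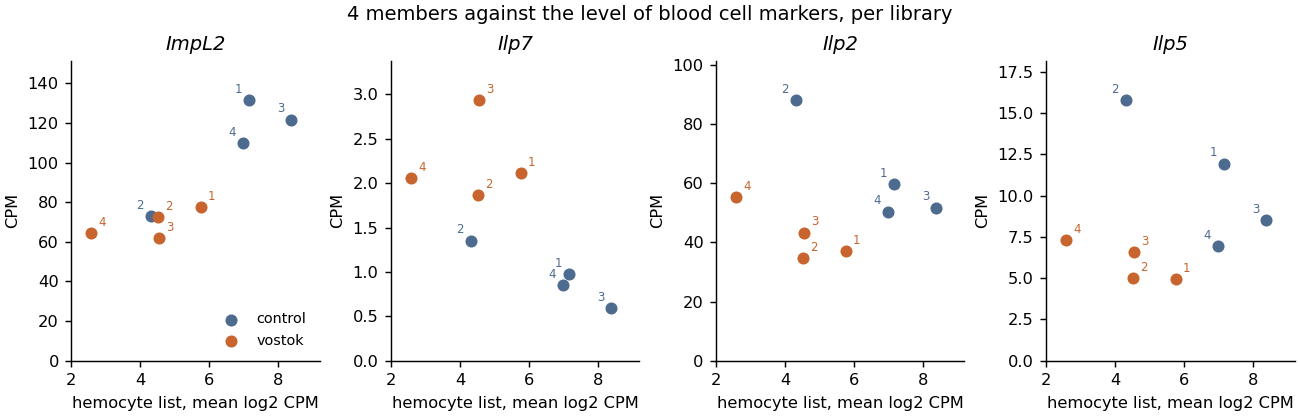
CPM of ImpL2, Ilp7, Ilp2 and Ilp5 (vertical axes, from 0) against the mean log2 CPM of 16 blood cell markers (horizontal axes) in the 4 control and 4 vostok libraries, numbered by replicate. Control libraries 1, 3 and 4 sit to the right for all genes, while control library 2, at 4.30, sits among the vostok libraries and is near them for ImpL2 but the highest library for Ilp2 and Ilp5.

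Ilp2 and Ilp5 did not follow ImpL2 in this. In control library 2, whose blood cell and neuron markers were at the vostok level, Ilp2 and Ilp5 were at 88.1 and 15.8 CPM, above every vostok library. With the blood cell list mean as a covariate the differences in Ilp2 and Ilp5 were larger than without it: Ilp2 fell by 1.00 ± 0.13 and Ilp5 fell by 1.31 ± 0.24 on the log2 scale, and both were called (edgeR adjusted p = 0.00422 and 0.0144). With the neuron list mean they were -0.82 and -1.07, and neither was called (adjusted p = 0.0508 and 0.0550). Control library 2 is the only control library at that marker level, so the covariate fits lean on it. Without that library and without a covariate the differences in Ilp2 and Ilp5 were -0.35 and -0.62 and not called (edgeR adjusted p = 0.109 and 0.0511). The part of blood cell or neuron content in these differences was not tested. With the fat body list mean as a covariate the differences in Ilp2, Ilp5 and ImpL2 were -0.52, -0.76 and -0.66, and none was called (adjusted p = 0.177, 0.131 and 0.0581). With that covariate Ilp7 was 1.27 and kept its call (adjusted p = 0.0429), while Ilp3 at 0.25 and Ilp6 at -0.25 were not called (adjusted p = 0.427 and 0.130).

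**Figure D4:**
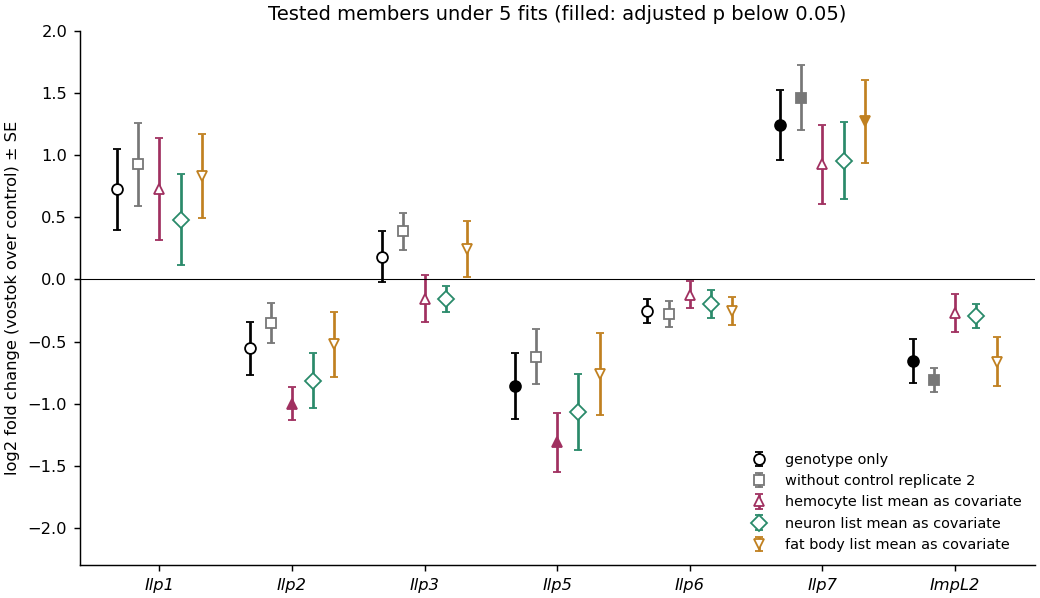
Log2 fold change (vostok over control) ± SE of the 7 tested members in the fit with genotype alone, without control replicate 2, and with the mean log2 CPM of the blood cell (hemocyte), neuron or fat body list as a covariate; filled symbols have an edgeR adjusted p below 0.05. With the blood cell or neuron covariate Ilp2 and Ilp5 lie further below 0, ImpL2 lies closer to 0 and Ilp3 crosses 0, while with the fat body covariate they stay near the fit with genotype alone; Ilp7 stays above 0 in all 5 fits.

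Levels of different members can be set side by side only per length, here as CPM per kb of annotated gene span, which includes introns and so understates the long genes ImpL2 (12142 bp) and Ilp6 (3166 bp). In control Ilp2 led with 84.1 ± 23.6, followed by Ilp3 at 22.9 ± 7.09 and Ilp5 at 19.7 ± 7.16, whose spreads overlapped. ImpL2 at 8.99 ± 2.10 and Ilp6 at 6.79 ± 0.225 came next and also overlapped, and Ilp7 at 0.771 ± 0.258 and Ilp1 at 0.719 ± 0.221 were not separable. Ilp8 and Ilp4 closed the order at 0.0525 and 0.0113.

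In vostok the order by gene span was the same except that ImpL2 and Ilp6 stood level, at 5.70 ± 0.595 and 5.70 ± 0.790 CPM per kb. Both are understated by this measure, so their places in the order are uncertain. Ilp2 was at 57.2 ± 12.4, Ilp3 at 26.0 ± 2.50 and Ilp5 at 10.8 ± 2.13, so Ilp3 and Ilp5, which overlapped in control, were apart by more than their spread. Ilp7 at 1.83 ± 0.385 and Ilp1 at 1.19 ± 0.389 still overlapped in their SDs.

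Receptors and secreted binders of the peptides were described next, from a list of 6 genes that were all tested: 2 were called higher and 1 lower, with a median log2 fold change of 0.53. InR, the insulin receptor, measured 101, 161, 118 and 169 CPM in control libraries 1 to 4 and 206, 195, 183 and 177 CPM in vostok libraries 1 to 4. The groups did not overlap, but the log2 difference of 0.47 ± 0.17 was not called (edgeR adjusted p = 0.0645). It was called without control library 2 (adjusted p = 0.0291) or without control library 4.

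Sdr, a secreted decoy receptor that glia release and that binds insulin-like peptides as ImpL2 does, was higher in vostok, at 12.1 ± 2.86 CPM in control and 18.1 ± 2.21 in vostok (log2 0.58 ± 0.18, edgeR adjusted p = 0.0416). The call ended without control library 1 or 4 or any 1 vostok library (highest adjusted p 0.0868, without vostok library 1). Conv, a relative of the acid-labile subunit that joins peptides in complexes with ImpL2, was lower, at 26.7 ± 8.92 and 13.4 ± 1.99 CPM (log2 -0.99 ± 0.25, adjusted p = 0.0248), and control library 2, at 15.5 CPM, lay within the vostok range. That call ended without control library 1 or 3 or vostok library 2, 3 or 4 (highest adjusted p 0.0700, without vostok library 2). The secreted binders thus did not share a direction: ImpL2 and conv were called lower and Sdr higher. With the blood cell or the neuron list mean as a covariate Sdr was 1.00 and 0.94 and called (edgeR adjusted p = 0.00280 and 0.00119). In the same fits conv was -0.49 and -0.44 and not called (edgeR adjusted p = 0.330 and 0.0526), and ImpL2 was not called either.

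Of the relaxin-type receptors, Lgr4 was called higher at 2.96 ± 0.891 CPM in control and 5.22 ± 0.770 in vostok (log2 0.82 ± 0.23, edgeR adjusted p = 0.0321). Its call ended without any 1 of 7 libraries, all but control library 2 (highest adjusted p 0.0922, without vostok library 3). Lgr3, the receptor of Ilp8, ran from 2.62 to 5.94 CPM in control and from 5.65 to 6.86 CPM in vostok and was not called (adjusted p = 0.0970), but without control library 2 its log2 difference was 0.86 and was called (adjusted p = 0.0115).

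In the insulin receptor cascade, InR included, 23 of 24 listed genes were tested, 4 were called higher and 3 lower, and the median log2 fold change was 0.05. These counts stand beside 12.1% called higher and 16.2% called lower among all tested genes. Among those called higher, Pdk1, the kinase that activates Akt, stood at 137 ± 17.5 CPM in control and 186 ± 13.6 in vostok (log2 0.45 ± 0.10, edgeR adjusted p = 0.0161). The adaptor dock stood at 241 ± 43.1 and 330 ± 4.27 CPM (log2 0.45 ± 0.12, adjusted p = 0.0293). The other two, Sin1 of TOR complex 2 and the exchange factor step, differed by 0.17 and 0.19 on the log2 scale.

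Of the 3 called lower, Thor, the translational repressor 4E-BP that FOXO induces and TOR inactivates, measured 38.5, 22.5, 30.7 and 53.3 CPM in control libraries 1 to 4 and 16.7, 12.0, 14.5 and 10.5 CPM in vostok libraries 1 to 4. It did not overlap between the groups, its log2 fold change was -1.43 ± 0.27 (edgeR adjusted p = 0.00842), and no single library ended the call. The adaptor melt stood at 32.4 ± 13.4 and 14.8 ± 1.46 CPM (log2 -1.13 ± 0.29, adjusted p = 0.0269). FOXO's own RNA, foxo, stood at 30.0 ± 6.70 and 20.4 ± 1.86 CPM (log2 -0.56 ± 0.16, adjusted p = 0.0386).

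Apart from Thor, these calls depended on single libraries. Pdk1 lost its call without vostok library 2 (adjusted p = 0.0511), dock without control library 3 or any 1 vostok library (highest 0.0794, without control library 3), melt without control library 1 or 3 or any 1 vostok library (highest 0.0766, without vostok library 2) and foxo without any 1 library but control library 2 (highest 0.101, without vostok library 2). Sin1 kept its call only without control library 1 or 2, and step only without control library 2 or 4 or vostok library 4. Of the core of the pathway, chico, Pi3K92E, Pi3K21B, Tsc1, gig, Rheb, Tor and S6k were not called, and Akt was at 228 ± 22.4 and 262 ± 5.39 CPM (adjusted p = 0.0796). With the mean level of blood cell markers as a covariate edgeR called 0 of the 23 genes, with 3 at an unadjusted p under 0.05. In that fit it called 988 of 10749 genes over the whole table, and Thor was at -0.99 (adjusted p = 0.0876). With the neuron list mean edgeR called 2 of the 23 genes, Pdk1 and dock (adjusted p = 0.0487 and 0.0376), beside 1757 of 10749 genes. Thor was at -1.31 in that fit and was not called (adjusted p = 0.0561). Without a covariate DESeq2 called 10 of the 23 genes, and 4330 of 10749 over the whole table.

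**Figure D5:**
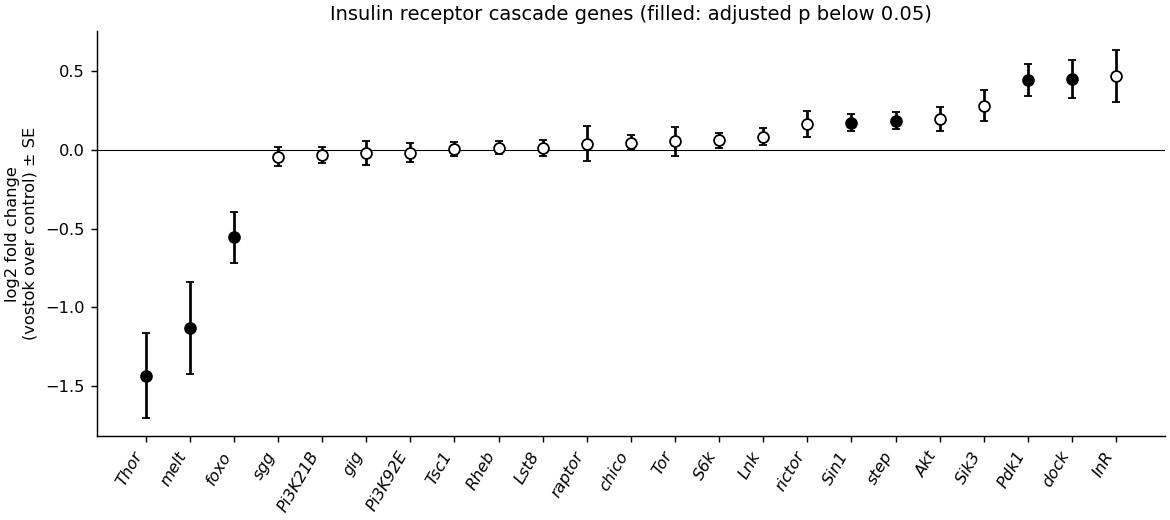
Log2 fold change (vostok over control) ± SE of the 23 tested genes of the insulin receptor cascade, in order of size; filled points have an edgeR adjusted p below 0.05. Thor, melt and foxo lie below 0 by more than their error, most core genes lie near 0, and InR, at 0.47, is the highest but is not called.

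Genes known in Drosophila to be raised by FOXO were read next, from 9 tested genes that include Thor, InR and Ilp6 itself. Lip4, a lipase, stood at 46.0, 56.9, 46.4 and 87.1 CPM in control libraries 1 to 4 and 2.17, 2.57, 1.71 and 1.14 CPM in vostok libraries 1 to 4, a log2 fold change of -4.95 ± 0.33 (edgeR adjusted p = 8.14e-05) that held without each library. The stress phosphatase puc was called higher, at 59.0 ± 7.28 and 77.6 ± 5.29 CPM (adjusted p = 0.0207), and lost its call without control library 3 or vostok library 2 or 3 (highest 0.0679, without vostok library 3). With Thor and Lip4 lower, puc higher and 6 genes not called, the list had no common direction, and its median was -0.16.

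Signals that act on the insulin-producing cells formed a list of 36 tested genes, of which 5 were called higher and 3 lower, with a median log2 fold change of 0.35. Of all tested genes 12.1% were called higher and 16.2% lower. The tumour necrosis factor egr was higher, at 88.5 ± 12.5 and 114 ± 3.78 CPM (log2 0.36 ± 0.10, edgeR adjusted p = 0.0279), and its receptor grnd lower, at 22.8 ± 12.4 and 7.33 ± 1.16 CPM (log2 -1.64 ± 0.41, adjusted p = 0.0236). The receptor mth, through which a fat body signal reaches these cells, was lower, at 52.7 ± 12.2 and 30.9 ± 3.48 CPM (log2 -0.77 ± 0.17, adjusted p = 0.0168). The corazonin receptor CrzR was higher, at 9.63 ± 3.31 and 17.9 ± 2.76 CPM (log2 0.89 ± 0.24, adjusted p = 0.0311).

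The other called genes of the list, named after their values were seen, were the nutrient-sensing peptide CCHa2 at 5.27 ± 1.71 and 8.90 ± 1.25 CPM, its receptor CCHa2-R at 7.18 ± 2.66 and 12.8 ± 0.832 CPM, the peptide sNPF at 32.5 ± 12.5 and 59.1 ± 5.04 CPM, and, lower in vostok, the clock neuron peptide Pdf at 19.3 ± 4.23 and 13.7 ± 1.10 CPM. Their edgeR adjusted p ran from 0.0361 to 0.0466. Of the 8 called genes, mth lost its call only without vostok library 3 (adjusted p = 0.0510), and the others lost theirs without 5 to 7 different single libraries. Without control library 2, the control library with the most neuron marker RNA, 18 of the 36 were called higher and 5 lower. With the neuron list mean as a covariate 2 were called higher and 3 lower, with a median of 0.09. In that fit 922 of 10749 genes were called higher and 835 lower. With the blood cell list mean edgeR called 0 higher (1 at an unadjusted p under 0.05) and 1 lower, with a median of 0.15, while DESeq2 without a covariate called 10 higher and 4 lower.

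The ring gland, an endocrine organ attached to the brain, holds the counterpart of insulin: Akh, the adipokinetic hormone of the corpora cardiaca. Akh measured 5.91, 6.17, 6.35 and 11.9 CPM in control libraries 1 to 4 and 17.0, 15.9, 19.7 and 16.6 CPM in vostok libraries 1 to 4. The groups did not overlap, and the log2 fold change of 1.19 ± 0.23 was called (edgeR adjusted p = 0.00964) with every library left out in turn. Of 11 tested ring gland markers 5 were called higher, Akh, nvd, Npc1a, tor and dib, with a median log2 fold change of 0.77. Without control library 2, 6 were called higher and 2 lower, with a median of 0.53. With the blood cell or the neuron list mean as a covariate edgeR called 1 in each fit, nvd, higher in vostok. Akh was thus not called in either of these fits. In each of those fits 6 were higher at an unadjusted p under 0.05, and the medians were 0.97 and 0.82.

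Genes for ecdysone synthesis in the gland were among these. The cholesterol oxygenase nvd ran from 10.8 to 26.9 CPM in control and from 49.2 to 85.1 CPM in vostok (edgeR adjusted p = 0.00821). The sterol transporter Npc1a stood at 216 ± 35.4 and 381 ± 96.0 CPM (adjusted p = 0.0187). No single library ended either call. Npc1a was not called with the blood cell or the neuron list mean as a covariate (edgeR adjusted p = 0.0514 and 0.0805). The calls of tor and dib ended without any 1 of 4 and any 1 of 5 libraries, and phm, the most abundant of these genes, ran from 106 to 283 and from 256 to 547 CPM and was not called (adjusted p = 0.117). Summed markers of the gland ran from 467 to 871 CPM in control and from 768 to 1402 CPM in vostok, and their sums overlapped. How much ring gland each library held, and its part in these values, was not tested.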

How the data were processed

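Total RNA of whole brains was measured in 8 RNA-seq libraries, and the 2 Micro-C libraries of vostok brains were left out. Values are the authors' estimated counts for each gene, deposited unscaled in a table whose name credits salmon. Per the submitters' processing notes, BWA and dm6 were used, in a role they leave unstated. Salmon's version, annotation and strand setting were not given in the sources used here.

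Of 24278 rows, the 17895 gene rows, 99.3% to 99.5% of counts, were used. A gene-name table held 17855 of their identifiers. After rounding to whole numbers, filterByExpr and TMM scaling, genotype alone was fitted in edgeR 4.0.16 (R 4.3.3) by its robust quasi-likelihood F test. Benjamini-Hochberg adjustment covered all 10749 genes. The fit was checked on simulated counts drawn for each gene independently, without marker shifts shared between genes. That check does not cover the uneven blood cell and neuron markers of these libraries. Ratios of peptide counts (0.5 count added) were compared by exact permutation with scipy 1.17.1 in Python 3.11.15, and plots used matplotlib 3.10.9.

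The floor of 3 counts in a library covers counting error only, since reads carry no molecular identifiers. Other settings tried were scaling by RLE, by upper quartiles or not at all, no or a stricter filter (mean of at least 1 CPM in a group), DESeq2 1.42.0, limma 3.58.1 voom, the replicate number as a block, each library left out, an adjusted p below 0.01, and the mean level of blood cell or fat body markers as a covariate. The neuron covariate and the nerve cord list were added after the data were seen.

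The members and gene lists were chosen with earlier results of these data known. Named are all members, up to 4 called genes per pathway list by smallest p or up to 2 abundant ones where none was called, the 2 most abundant marker genes of other cells (muscle and glia only where a library stood apart or a setting changed the call), the 3 closest profiles of each called member, neighbouring genes, CG11504 and y. InR, Akt, foxo, Sin1, step, Lgr3, Akh, nvd, dib, tor, CCHa2, CCHa2-R, sNPF, Pdf, Abd-B, Hml, wg, hh, eyg, vkg and Glt were named after their values were seen. The listed symbols susi, dm, Pc2 and Cyb561 were not matched, and 1 gene each of the cascade and ring gland lists was taken off them and is not reported here. Gene positions came from RefSeq's Release 6 annotation, the assembly that dm6 names.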

Additional observations from a re-analysis of the deposited data

Results flagged for a closer look

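Of 212 sets of 4 libraries checked, 12 had 1 library apart from the other 3, judged by its gap to the nearest of them over the range of all 4 (Dixon's ratio at its 95% critical value), where chance alone gives about 1 in 20. None of these was a value of Ilp1 to Ilp8 or ImpL2. Akh was high in control library 4, at 11.9 CPM beside 5.91 to 6.35 CPM in the other control libraries. The ecdysone synthesis gene phm was low in control library 2, at 106 CPM beside 253 to 283 CPM. Nrg was low in control library 1, at 497 CPM beside 625 to 649 CPM, and summed imaginal disc markers were high in control library 2, at 676 CPM beside 652 to 653 CPM.

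Among vostok libraries, PPO2 and PPO1 were high in library 1, at 145 and 59.4 CPM, beside at most 26.4 and 10.4 CPM in the others. Vostok library 3 was high for Mhc at 29.0 CPM beside at most 7.14 CPM, for summed gut and visceral muscle markers at 126 CPM beside at most 52.9 CPM, and for CG43897, whose span holds Ilp5, at 7.25 CPM beside at most 3.95 CPM. In the same library lncRNA:CR33218, the gene before Ilp6, was low at 0.147 CPM beside at least 0.333 CPM. The antisense asRNA:CR45738, next to ImpL2, had 1 count there (0.0147 CPM) and none in the others, and lncRNA:CR45756, which overlaps Ilp8 by 26 bp, had 1 count in control library 2 (0.0124 CPM).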

How the results depend on the processing

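Replicate numbers are shared by the groups, but same-numbered libraries did not deviate together throughout (correlations 0.150, 0.00355, 0.0449 and -0.0271), so the numbers are not taken as pairs. The edgeR count of called genes, 3040, was 1564 with the replicate block, 988, 1879 and 1757 with the blood cell, fat body or neuron list as covariate, 1057 at an adjusted p below 0.01, and 1521 to 5333 with a library left out, the highest without control library 2. The 3 called members became 0 with the replicate block (3 at an unadjusted p under 0.05), 1 with the fat body covariate, 0 with the neuron covariate (4 unadjusted), 0 at an adjusted p below 0.01 and 0 to 3 with a library left out (0 without vostok library 3, with 3 unadjusted), beside 4 by DESeq2. With the replicate block 0 of the 16 blood cell markers were called lower by edgeR (5 unadjusted, beside 12 by DESeq2), and 1 of the 36 signals to insulin-producing cells was called higher. With the blood cell covariate 2 were called, Ilp2 and Ilp5. The 7 called cascade genes became 3, 0 (3 unadjusted, beside 10 by DESeq2), 3 and 2 with the replicate block and the blood cell, fat body and neuron covariates, 1 at an adjusted p below 0.01 and 1 to 9 with a library left out. The log2 ratio difference of Ilp3 over Ilp2 was 0.62 to 0.91, and that of Ilp5 over Ilp3 -1.27 to -0.80, with a library left out, where the exact permutation p cannot go below 0.0571. As differences between same-numbered libraries, the replicate block, they stayed at 0.77 and -1.04, with the smallest p that 4 pairs allow, 0.125. The glial gene Eaat1, not called at 0.06, was -0.18 and called with the neuron covariate (adjusted p = 0.0325). RLE, upper quartile or no scaling, no filter, a stricter filter, DESeq2 and limma voom kept the direction of every member they tested (Ilp1 did not pass the stricter filter). Depth limits Ilp4 and Ilp8, and 4 libraries per group with blood cell and neuron markers that differ between them limit the rest.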
